A study of Homo sapiens with 20 samples.

Results

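CBS, CTH, MPST, SQOR and ETHE1, the 5 genes whose enzymes make and oxidize hydrogen sulfide in human cells, were taken from an RNA sequencing table of 60719 genes by their gene names. All 5 passed the filter on low counts and were tested among 16327 genes. The libraries came from Jurkat (WT), an established T lymphoblast line that grew out of a human leukemia, and from JINB8 (JinB8, CD47-), a somatic mutant of Jurkat that is deficient in CD47. The line difference is thus a difference between 1 parental line and 1 mutant line, and loss of CD47 and other differences between these lines cannot be told apart. Both lines were kept in serum-free medium during the experiment and gave 10 libraries each. Cells of each line were given thrombospondin-1 (TSP1, a secreted ligand of CD47), were plated on immobilized antibodies to CD3 and CD28 that engage the T cell receptor complex and its costimulator (CD3+CD28), or had the antibodies and TSP1 together (CD3+CD28+TSP1), with 1 library per line for every treatment and time of 1, 3 and 6 h. Untreated cells gave 1 library per line, at 1 h only, and nothing in the labels says whether the libraries of a line came from separate cultures, so p-values measure the spread between these libraries. In bulk RNA, fewer cells that express a gene and less of its RNA per cell cannot be told apart.

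Hydrogen sulfide is a gas that cells release from sulfur amino acids, and at low levels it acts as a signal and as a mitochondrial fuel. CBS joins homocysteine with serine to cystathionine, CTH splits cystathionine into cysteine, and both can release sulfide in side reactions, while MPST moves sulfur from 3-mercaptopyruvate to acceptors that give it up as sulfide. SQOR oxidizes sulfide at the inner mitochondrial membrane and passes the electrons to ubiquinone, and ETHE1 then turns the glutathione persulfide into sulfite. In T cells, sulfide made after stimulation has been described as supporting activation, and TSP1 acting through CD47 as limiting it.

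Positions are given on GRCh38 with the gene models of GENCODE 44. CBS (ENSG00000160200) spans chr21:43053191-43076943 on the minus strand, and CTH (ENSG00000116761) spans chr1:70411218-70439851 on the plus strand. MPST (ENSG00000128309) spans chr22:37019635-37029821 on the plus strand, where its 5′ end overlaps that of TST on the other strand by 549 bp. SQOR (ENSG00000137767) spans chr15:45631148-45691281 on the plus strand and shares 45167 bp with a read-through gene of the same strand. ETHE1 (ENSG00000105755) spans chr19:43506719-43527230 on the minus strand and overlaps ZNF575 on the other strand by 1734 bp. The strand setting of the counting is not given in the sources used here, so reads from the MPST and ETHE1 overlaps may have been split between the partners. Reads from the bases that SQOR shares with the read-through gene may have been split under any strand setting.

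The sequences before the start sites of CBS, CTH and SQOR are shown because these genes changed with time in both lines, CBS in opposite directions. They come from RefSeq on GRCh38.p14, 5′ to 3′ on the strand of the gene, cut to the stretch outside every annotated exon, with GC boxes (GGGCGG or its reverse complement, on either strand) in capitals. The CBS stretch is chr21:43075946-43076085 on the minus strand, before the start of the isoform that held most CBS counts, the CTH stretch is chr1:70411018-70411217 and the SQOR stretch is chr15:45634895-45635028, both on the plus strand. Between the end of the stretch and the start site lie 110 bases for CBS, 50 for CTH and 0 for SQOR, which are not shown.
CBS: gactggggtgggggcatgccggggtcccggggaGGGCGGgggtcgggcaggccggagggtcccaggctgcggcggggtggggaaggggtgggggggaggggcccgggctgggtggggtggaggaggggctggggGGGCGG
CTH: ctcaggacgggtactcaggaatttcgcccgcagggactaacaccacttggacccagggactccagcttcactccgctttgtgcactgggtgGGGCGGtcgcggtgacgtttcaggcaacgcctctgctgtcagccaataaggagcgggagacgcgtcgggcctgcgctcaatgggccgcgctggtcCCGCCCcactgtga
SQOR: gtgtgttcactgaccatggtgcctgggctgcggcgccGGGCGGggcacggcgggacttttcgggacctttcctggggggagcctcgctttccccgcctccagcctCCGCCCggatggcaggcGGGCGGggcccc

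The capitals mark 2 GC boxes in the CBS stretch, 2 in the CTH stretch and 3 in the SQOR stretch. Over the full windows of 300 bases, CTH held 2, SQOR 4 and ETHE1 4 GC boxes, of which a pair in ETHE1 shared 1 base, and the CBS windows at 3 start sites held 1, 4 and 0. Of 35116 RefSeq promoter windows of this length, 45% held GGGCGG. The letters TGATGNAA, bound by ATF4, were in 3.62% of the windows and in none of the windows of CBS, CTH, SQOR and ETHE1, the genes searched. The letters TGACNNNGC, bound by NFE2L2, were in 13.3% of the windows, among them that of ETHE1 and 1 of the CBS windows.

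Values are in CPM, which are RSEM expected counts scaled to the same library size after TMM normalization. Library totals ran from 16107921 to 31737616, and 3 counts, used as the detection floor, were 0.0979 to 0.156 CPM. The library with the lowest total, JinB8 CD3+CD28+TSP1 at 3 h, also had the highest TMM factor, 1.2. CD47 itself was at 317 ± 42.1 CPM (SD, n = 10) in Jurkat and at 147 ± 12.6 CPM in JinB8 (log2 fold change -1.10, adjusted p = 1.05e-10 by edgeR), so its transcript was lower in JinB8 but still present. All 10 T cell markers checked were detected and tested, and their summed level was 1356 to 1829 CPM in Jurkat and 1538 to 2221 CPM in JinB8. The sum hides differences between the lines, since 6 markers were called higher and 1 lower in JinB8, beside 6596 of 16327 genes called. CD28, a target of the antibodies, averaged 45.1 CPM in Jurkat and 230 CPM in JinB8, and ZAP70 averaged 220 and 116 CPM. The sum of 4 B cell markers was 35.6 to 55.9 CPM in Jurkat and 5.71 to 13.5 CPM in JinB8, with none of the 4 at 0 in every library, and its part in the results below was not tested. Markers of monocytes, epithelial cells and fibroblasts summed to at most 7.94 CPM in any library.

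CBS transcripts were more abundant in JinB8 than in Jurkat in every library, MPST and SQOR were higher in JinB8, and CTH and ETHE1 differed less. Of the 5 genes, 3 passed an adjusted p of 0.05, all higher in JinB8, beside 40.4% of all genes tested, 19.8% higher and 20.6% lower. CBS, the first enzyme of transsulfuration, was lowest at 12.0, had a median of 15.9 and was highest at 21.6 CPM in Jurkat, and the same values in JinB8 were 28.4, 39.0 and 64.0 CPM. The ranges of the lines did not overlap for CBS alone of the 5, beside 6.01% of all genes apart with JinB8 higher and 5.48% with JinB8 lower. Its mean was 16.1 ± 3.38 CPM in Jurkat and 44.04 ± 13.9 CPM in JinB8 (SD, n = 10 each), and the log2 fold change was 1.45 (SE 0.16, adjusted p = 1.73e-07), or 2.73-fold. In matched pairs of libraries of the same treatment and time, CBS was higher in JinB8 in 10 of 10 pairs, by 0.42 to 2.34 on the log2 scale.

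**Figure D1:**
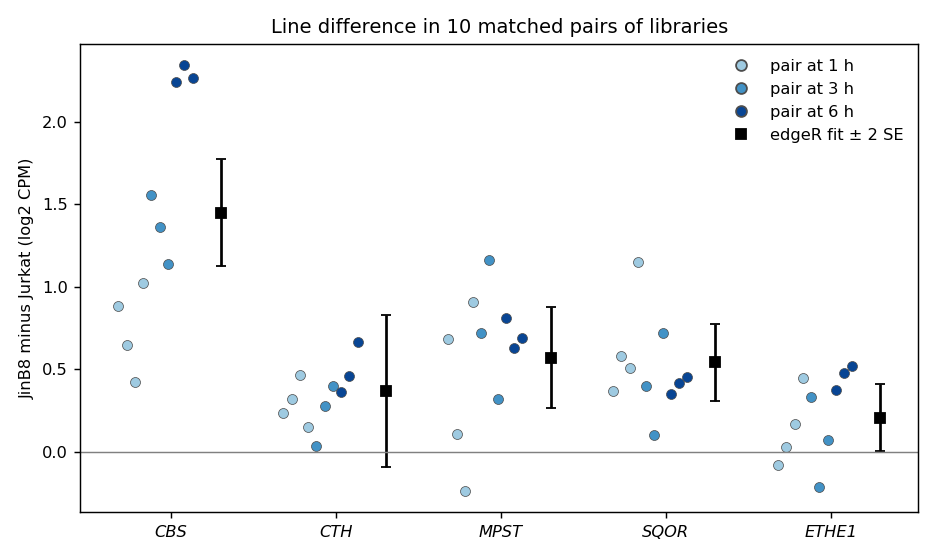
Difference of JinB8 and Jurkat in log2 CPM (vertical axis) for each of the 5 genes, with 1 point for each of the 10 matched pairs of libraries, shaded by time, and a square for the fitted log2 fold change with a bar of 2 SE each way. All CBS, CTH and SQOR points lie above 0, and the CBS points at 6 h, from 2.24 to 2.34, lie above those at 1 h, from 0.42 to 1.02.

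CTH, the second enzyme of transsulfuration, had the fewest counts of the 5. Its lowest, median and highest values were 2.48, 3.05 and 6.50 CPM in Jurkat and 2.81, 4.19 and 7.79 CPM in JinB8, so that the ranges overlapped. The mean was 4.07 ± 1.64 against 5.24 ± 1.90 CPM, and the log2 fold change of 0.37 (SE 0.23) did not pass the threshold (adjusted p = 0.213, interval of 2 SE from -0.09 to 0.83). CTH was nevertheless higher in JinB8 in 10 of 10 pairs, by 0.04 to 0.67, and in a fit with a block for the pairs the difference of 0.38 passed (SE 0.09, adjusted p = 0.00255). With that block all 5 genes passed, beside 54.9% of all genes. All 5 also passed over the 6 h libraries alone, beside 59.6% of all genes, with CTH at 0.58 (adjusted p = 0.00588). Over the 3 h libraries alone CTH was at 0.30 and did not pass (adjusted p = 0.335).

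MPST, which works in both mitochondria and cytosol, ranged from 10.9 to 27.2 CPM with a median of 16.4 in Jurkat, and from 18.8 to 35.1 CPM with a median of 22.9 in JinB8. The ranges overlapped over the 10 libraries and at 1 h, and they were apart at 3 h and at 6 h. With only 3 libraries per line at each of these times ranges part easily, so this describes the values and is no test. MPST averaged 16.9 ± 4.94 CPM in Jurkat and 25.2 ± 5.25 CPM in JinB8 with a log2 difference of 0.57 (SE 0.15, adjusted p = 0.00417), and it was higher in 9 of 10 pairs. The exception was the pair with TSP1 alone at 1 h, at -0.23. Over the 1 h libraries alone the MPST difference was 0.37 and did not pass (adjusted p = 0.182).

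Of the oxidizing enzymes, SQOR ranged from 11.0 to 15.3 CPM with a median of 11.97 in Jurkat and from 12.4 to 25.1 CPM with a median of 17.8 in JinB8. Over all libraries the ranges overlapped, with the lowest JinB8 value, 12.4 CPM, in CD3+CD28+TSP1 at 3 h, while within each time point they did not. A time point has only 3 or 4 libraries per line, so this too describes the values and is no test. SQOR averaged 12.6 ± 1.68 against 18.3 ± 3.89 CPM (log2 fold change 0.54, SE 0.12, adjusted p = 0.000608) and was higher in JinB8 in 10 of 10 pairs. The SQOR difference did not pass over the 3 h libraries alone (0.45, adjusted p = 0.0645) or over the 6 activated pairs (0.42, adjusted p = 0.0614). ETHE1 ranged from 12.2 to 20.5 CPM with a median of 15.8 in Jurkat and from 14.7 to 20.9 CPM with a median of 18.5 in JinB8. Its mean of 15.9 ± 2.85 against 18.4 ± 2.06 CPM gave a log2 fold change of 0.21 (SE 0.10) that did not pass (adjusted p = 0.103), with 8 of 10 pairs higher. In the fit with the pair block the ETHE1 difference of 0.22 passed (adjusted p = 0.0338). It also passed when 1 library was left out, namely Jurkat CD3+CD28 at 1 h (0.26, adjusted p = 0.0449), Jurkat CD3+CD28+TSP1 at 1 h (0.26, adjusted p = 0.0379) or JinB8 CD3+CD28+TSP1 at 3 h (0.26, adjusted p = 0.0392).

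CBSL, a near-identical copy of CBS in the annotation used for counting, could draw reads from CBS. CBSL held between 0 and 48.3 counts per library, against 299 to 1546 for CBS, and its log2 fold change between the lines was 1.26 (SE 0.39, adjusted p = 0.0135). With the counts of both summed, the level was 16.6 ± 3.55 CPM in Jurkat and 45.2 ± 14.3 CPM in JinB8, and the log2 fold change was 1.45 (adjusted p = 2.09e-07).

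CBS moved in opposite directions in the lines with time, while CTH and SQOR fell in both. Every library of 3 h and 6 h had TSP1, the antibodies or both, with no untreated library at these times. Time in the medium, duration of treatment and any difference in handling between the times therefore cannot be told apart. In Jurkat, CBS was at 18.2 CPM in untreated cells, 21.1 with TSP1, 16.4 with CD3+CD28 and 21.6 with CD3+CD28+TSP1 at 1 h. It was at 16.7, 14.0 and 15.4 CPM at 3 h and at 12.7, 13.1 and 12.0 CPM at 6 h with TSP1, CD3+CD28 and CD3+CD28+TSP1. The 6 h values all lay below the 1 h values, and the treatments differed little at 6 h. In JinB8, CBS was at 37.6 CPM in untreated cells, 28.4 with TSP1, 30.7 with CD3+CD28 and 34.2 with CD3+CD28+TSP1 at 1 h. It was at 37.3, 42.2 and 40.5 CPM at 3 h and at 62.8, 64.0 and 62.9 CPM at 6 h, in the same order of treatments. All 3 values at 6 h lay above every JinB8 value at 1 h and 3 h.

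**Figure D2:**
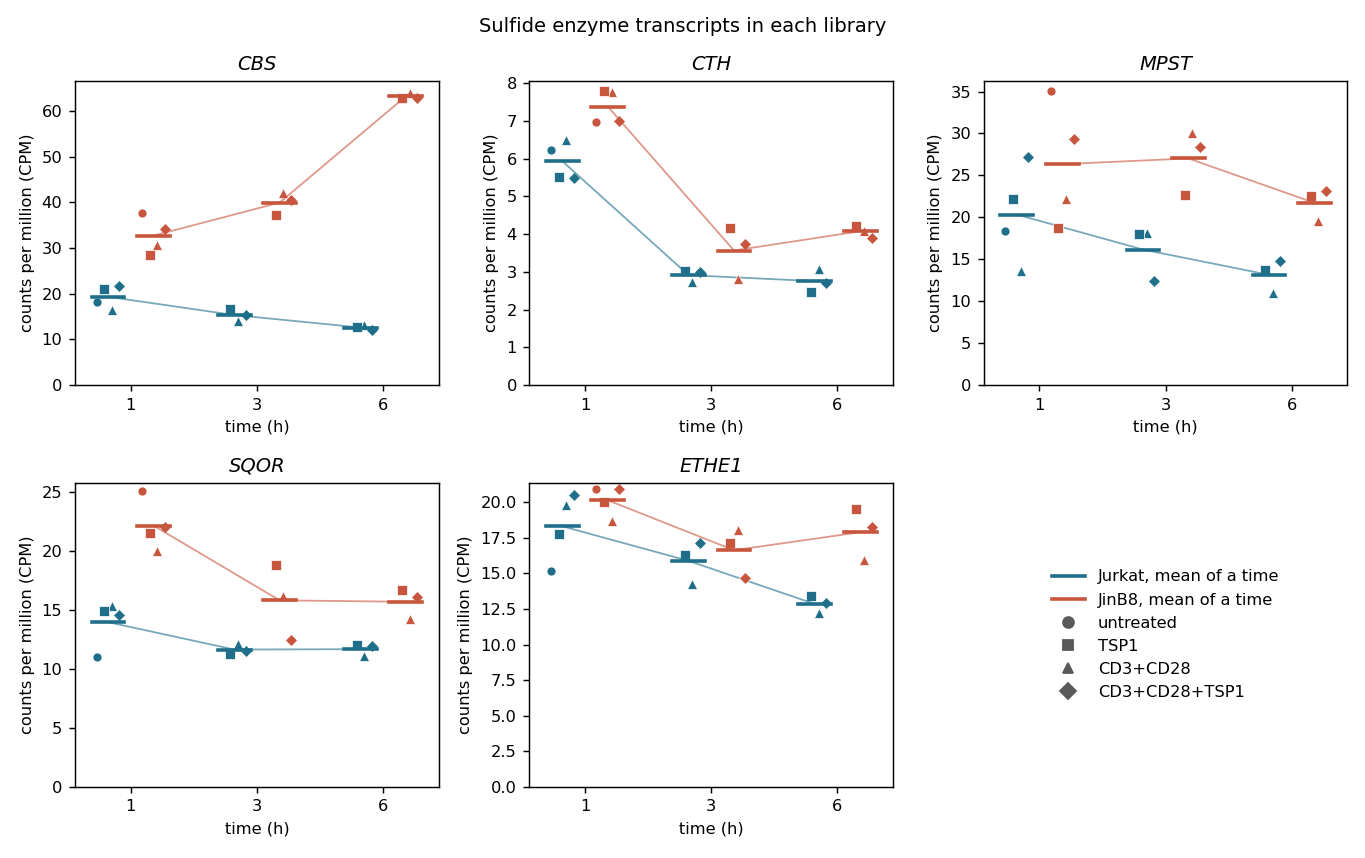
CPM (vertical axis, starting at 0) of each gene in the 20 libraries by time, with symbols for the treatment and bars joined by lines for the mean of a line at a time. CBS rises from 32.7 to 63.2 CPM on average in JinB8 and falls from 19.3 to 12.6 CPM in Jurkat, while CTH falls after 1 h in both lines.

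From 1 h to 6 h, CBS fell in Jurkat by 0.64 on the log2 scale (SE 0.10, adjusted p = 8.9e-05) and rose in JinB8 by 1.03 (SE 0.09, adjusted p = 5.47e-07), a 2.04-fold rise. The difference between the lines in this change was 1.67 (SE 0.13, adjusted p = 4.08e-06), or 3.17-fold. CBS was the only one of the 5 genes with such a difference between the lines, beside 16.6% of all genes tested, 6.46% in the direction of CBS and 10.2% in the other. The step from 1 h to 3 h was also in opposite directions, with -0.36 in Jurkat (SE 0.10, adjusted p = 0.0106) and 0.36 in JinB8 (SE 0.09, adjusted p = 0.00697). Without the Jurkat library of CD3+CD28+TSP1 at 1 h, the Jurkat step was -0.28 and did not pass (adjusted p = 0.0741). Fitted at each time alone, the line difference of CBS was 0.76 at 1 h (SE 0.11), 1.39 at 3 h (SE 0.11) and 2.34 at 6 h (SE 0.06). For CBSL the change from 1 h to 6 h was -1.41 in Jurkat, which did not pass (adjusted p = 0.0954), and 1.40 in JinB8 (adjusted p = 0.0451). Its difference between the lines in this change was 2.81 (SE 0.86, adjusted p = 0.0406), and with CBS and CBSL summed the difference was 1.69 (SE 0.12, adjusted p = 2.08e-06).

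CTH at 1 h was at 6.22 CPM in untreated Jurkat, 5.51 with TSP1, 6.50 with CD3+CD28 and 5.49 with CD3+CD28+TSP1, and its values at 3 h and 6 h were between 2.48 and 3.08 CPM. In JinB8 it was at 6.97, 7.79, 7.76 and 6.99 CPM at 1 h, in the same order, and between 2.81 and 4.23 CPM later. No later value reached the lowest 1 h value of its line. From 1 h to 3 h CTH fell by 0.99 in Jurkat (SE 0.16, adjusted p = 0.000265) and by 1.08 in JinB8 (SE 0.15, adjusted p = 0.000121), and at 6 h it was still lower by -1.08 and -0.88 (adjusted p = 5.35e-05 and 2e-04). The lines did not differ detectably in the change to 6 h (0.20, interval of 2 SE from -0.23 to 0.63, adjusted p = 0.582), and the difference was 0.14 to 0.30 with single libraries left out. CTH counts were between 60 and 207 per library, the lowest of the 5 genes.

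**Figure D3:**
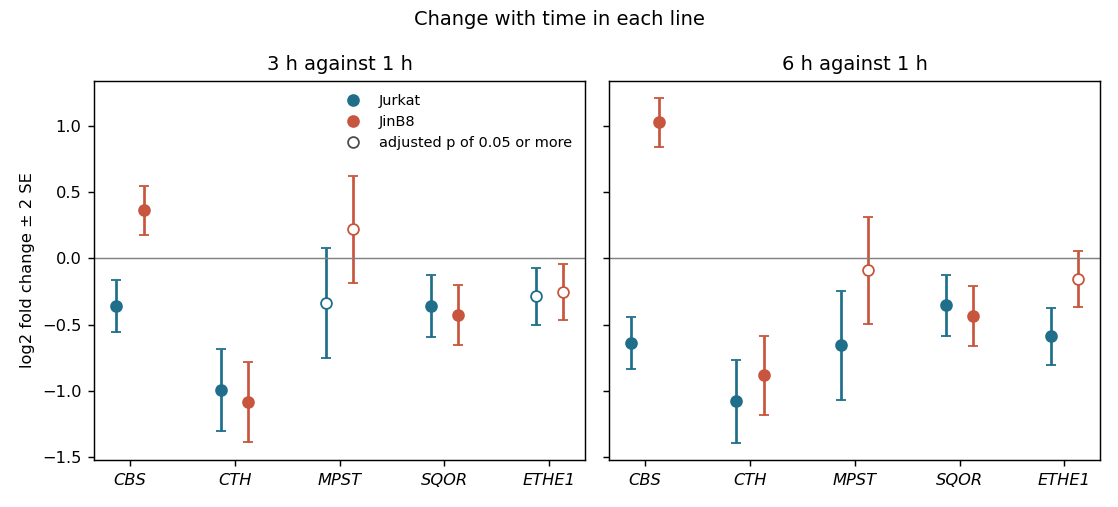
Log2 fold change of 3 h and of 6 h against 1 h (vertical axis, bars of 2 SE each way) for each gene in Jurkat and JinB8, with filled points for an adjusted p under 0.05. At 6 h all 5 Jurkat points are filled and below 0, and in JinB8 CBS is above 0 at 1.03 while CTH and SQOR are below 0.

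SQOR averaged 14.0 ± 1.98 CPM at 1 h, 11.6 ± 0.46 at 3 h and 11.7 ± 0.52 at 6 h in Jurkat, and 22.2 ± 2.14, 15.8 ± 3.21 and 15.7 ± 1.27 CPM in JinB8 (SD, n = 4, 3 and 3). The later values lay below all 1 h values in JinB8 and overlapped them in Jurkat, where untreated cells at 1 h had the lowest value of the line, 11.0 CPM. The changes at 3 h were -0.36 in Jurkat (SE 0.12, adjusted p = 0.028) and -0.43 in JinB8 (SE 0.11, adjusted p = 0.00922), and those at 6 h were -0.35 (SE 0.12, adjusted p = 0.02) and -0.44 (SE 0.11, adjusted p = 0.00494). In Jurkat the size of the fall changed little when single libraries were left out, from -0.40 to -0.33 at 3 h and from -0.40 to -0.31 at 6 h, but it was close to the threshold. At 3 h it no longer passed without any 1 of the 6 treated Jurkat libraries of 1 h and 3 h (-0.33 to -0.40, adjusted p from 0.0533 to 0.112). At 6 h it no longer passed without CD3+CD28 at 1 h (-0.35, adjusted p = 0.0555) or at 6 h (-0.31, adjusted p = 0.0842), and in JinB8 the 3 h change did not pass without CD3+CD28+TSP1 at 1 h (-0.33, adjusted p = 0.0603) and was -0.24 without CD3+CD28+TSP1 at 3 h.

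ETHE1 averaged 18.3 ± 2.37, 15.9 ± 1.49 and 12.9 ± 0.61 CPM at 1, 3 and 6 h in Jurkat, and 20.1 ± 1.05, 16.6 ± 1.75 and 17.9 ± 1.79 CPM in JinB8. At 6 h the Jurkat values, 12.2 to 13.4 CPM, were below all 1 h values of that line, and the change of -0.59 passed (SE 0.11, adjusted p = 0.000395). In JinB8 the change was -0.15 (SE 0.11, adjusted p = 0.242), and it ran from -0.19 without JinB8 TSP1 at 1 h to -0.067 without JinB8 CD3+CD28 at 6 h. With 1 time effect for both lines it was -0.37 and passed (adjusted p = 0.00555). The difference between the lines of 0.44 (SE 0.15) did not pass (adjusted p = 0.0638). It passed without Jurkat TSP1 at 1 h (0.56, adjusted p = 0.0417), JinB8 CD3+CD28 at 3 h (0.43, adjusted p = 0.0457) or JinB8 CD3+CD28+TSP1 at 3 h (0.44, adjusted p = 0.0234). The 3 h changes of -0.29 in Jurkat and -0.26 in JinB8 did not pass (adjusted p = 0.0522 and 0.074), but passed with limma voom and quantile normalization together (adjusted p = 0.0497 and 0.0393), and the Jurkat change passed from Jurkat libraries alone (-0.28, adjusted p = 0.043). With 1 time effect for both lines the 3 h change was -0.27 and passed (adjusted p = 0.0409). The Jurkat change at 3 h passed without Jurkat TSP1 at 1 h, JinB8 CD3+CD28+TSP1 at 1 h, JinB8 CD3+CD28 at 3 h or JinB8 CD3+CD28+TSP1 at 3 h (adjusted p from 0.0215 to 0.0496), and the JinB8 change passed without JinB8 CD3+CD28 at 3 h (-0.38, adjusted p = 0.022). With single libraries left out they also came as low in size as -0.21 in Jurkat, without CD3+CD28 at 1 h (adjusted p = 0.226), and -0.13 in JinB8, without CD3+CD28+TSP1 at 3 h (adjusted p = 0.351).

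MPST varied most of the 5 genes among the 1 h libraries, with a coefficient of variation of 28.2% in Jurkat and 27.7% in JinB8 against at most 14.1% for the others. At 1 h it was at 18.4 CPM in untreated Jurkat, 22.2 with TSP1, 13.6 with CD3+CD28 and 27.2 with CD3+CD28+TSP1, and in JinB8 it was at 35.1, 18.8, 22.2 and 29.3 CPM in the same order. The highest 1 h value was thus from untreated cells in JinB8 and from CD3+CD28+TSP1 in Jurkat. MPST fell from 1 h to 6 h in Jurkat by 0.66 (SE 0.21, adjusted p = 0.0167), and the change in JinB8 was -0.09 (SE 0.20, adjusted p = 0.739). The Jurkat change no longer passed without CD3+CD28+TSP1 at 1 h (-0.40, adjusted p = 0.157), CD3+CD28 at 6 h (-0.64, adjusted p = 0.0538) or TSP1 at 6 h (-0.63, adjusted p = 0.0629). JinB8 and Jurkat were 0.57 apart in this change, which did not pass (interval of 2 SE from -0.01 to 1.15, adjusted p = 0.204). It ran from 0.33 without Jurkat CD3+CD28+TSP1 at 1 h to 0.83 without Jurkat CD3+CD28 at 1 h (adjusted p = 0.0548), and it passed without the filter on low counts (adjusted p = 0.0149). At 3 h the changes were -0.34 in Jurkat and 0.22 in JinB8, neither of which passed (adjusted p = 0.23 and 0.415), and with single libraries left out the Jurkat change ran from -0.63 without CD3+CD28 at 3 h, where it passed (adjusted p = 0.033), to -0.020 without CD3+CD28+TSP1 at 3 h (adjusted p = 0.95). The Jurkat change also passed without the filter on low counts (-0.36, adjusted p = 0.0289), and the JinB8 change ran from 0.080 without CD3+CD28 at 3 h to 0.36 without CD3+CD28+TSP1 at 1 h.

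Of the 5 genes, 3 were lower at 3 h in Jurkat, beside 34.3% of all genes called, 16.9% higher and 17.4% lower, and 1 was called without CD3+CD28+TSP1 at 1 h, beside 27.2% of all genes. At 6 h in Jurkat 5 of 5 were lower, beside 50.5% of all genes, 25.7% higher and 24.8% lower, and 3 of 5 lay below every 1 h value, beside 28.4% of all genes. In JinB8, CBS was higher and CTH and SQOR were lower at 3 h, beside 38% of all genes, 18% higher and 20.1% lower, and the same 3 genes were called in the same directions at 6 h, beside 53% of all genes, 26% higher and 27% lower. Without CD3+CD28 at 6 h, 3 of 5 genes were called at 6 h in Jurkat, beside 42.4% of all genes.

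No change with activation or with TSP1 was called for any of the 5 genes. The 8 contrasts of treatments within a line and 2 line differences in them gave 50 tests of these genes, of which 0 passed an adjusted p of 0.05 in edgeR. DESeq2, and limma voom with quantile normalization, also called 0. Engagement of CD3 and CD28 could be read against TSP1 alone, with 3 libraries each, and against untreated cells, with 1 library. For CD3+CD28+TSP1 against TSP1, the log2 fold changes of the 5 genes lay between -0.05 (CBS) and 0.07 (ETHE1) in Jurkat and between -0.19 (SQOR) and 0.34 (MPST) in JinB8. In Jurkat this contrast called 15 of all genes tested, 0.0919%, and of 6 activation genes checked, 5 were higher, among them EGR1 (2.03, adjusted p = 0.0184) and CD69 (2.04, adjusted p = 0.0184). The count of 15 genes moved with single libraries. Among Jurkat libraries it was 0 without TSP1 at 1 h, without CD3+CD28+TSP1 at 3 h or without CD3+CD28+TSP1 at 6 h, 1 without CD3+CD28+TSP1 at 1 h and 4 without TSP1 at 3 h, and it was 42 without TSP1 at 6 h. It was 8 to 23 without any other library of either line, 54 with DESeq2 and 201 without the filter on low counts. In JinB8 this contrast called 0% of all genes, with 2636 genes at an unadjusted p under 0.05, 0 called by DESeq2 and 538 called without the filter. Of the 6 activation genes 0 were called in JinB8, and their median log2 fold change was 0.34, against 1.96 in Jurkat. Activation was thus not seen by this check in JinB8, so the values there cannot tell whether the 5 genes respond to it.

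**Figure D4:**
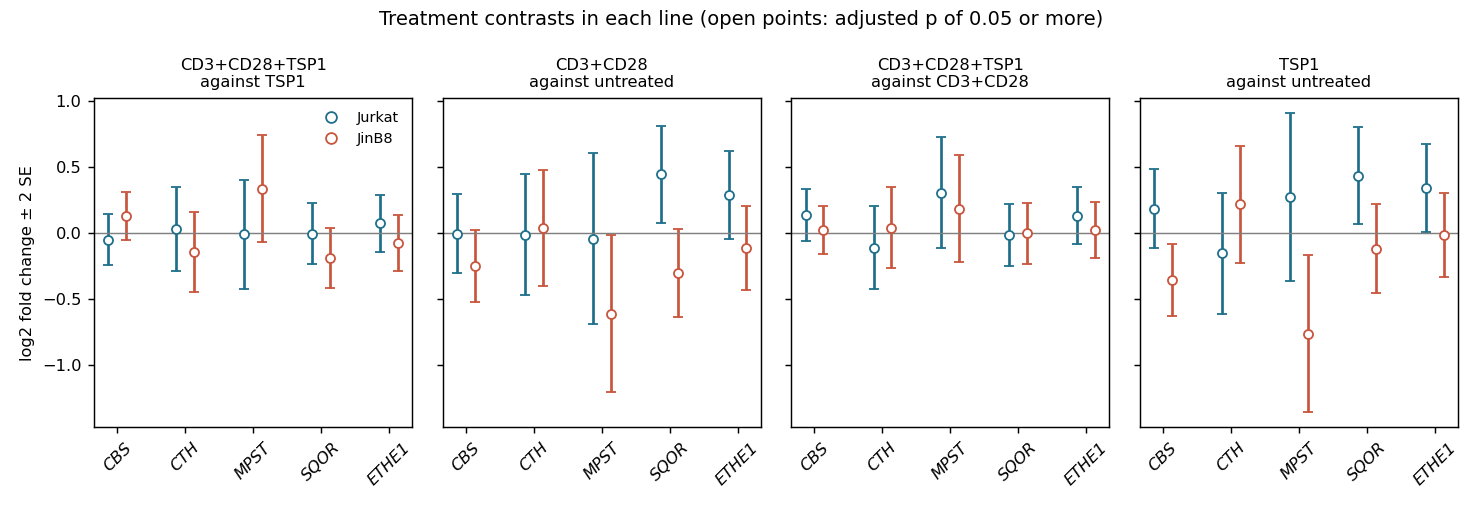
Log2 fold change (vertical axis, bars of 2 SE each way) of each gene in 4 contrasts of treatments in Jurkat and JinB8. All points are open because no adjusted p was under 0.05, and the lowest is MPST for TSP1 against untreated in JinB8, at -0.76.

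TSP1 on activated cells, CD3+CD28+TSP1 against CD3+CD28, gave log2 fold changes of 0.14 for CBS (SE 0.10), -0.11 for CTH (SE 0.16), 0.31 for MPST (SE 0.21), -0.02 for SQOR (SE 0.12) and 0.13 for ETHE1 (SE 0.11) in Jurkat, where every adjusted p was 1. In JinB8 the same contrast gave 0.02 for CBS (SE 0.09), 0.04 for CTH (SE 0.15), 0.18 for MPST (SE 0.20), -0.003 for SQOR (SE 0.11) and 0.02 for ETHE1 (SE 0.11), with the lowest adjusted p at 0.708. Both contrasts called 0% of all genes, with 366 and 1771 genes at an unadjusted p under 0.05. DESeq2 called 1 and 0 genes, and without the filter on low counts 84 and 401 were called. The differences between the lines in this effect lay between -0.12 (MPST) and 0.15 (CTH). At 1, 3 and 6 h the MPST difference in Jurkat was 0.97, -0.53 and 0.41 on the log2 CPM scale, so its sign was not the same at each time. Those of CBS, CTH and SQOR also changed sign, while ETHE1 was at 0.049, 0.26 and 0.078. With single libraries left out the fitted MPST value in Jurkat ran from 0.037 without CD3+CD28 at 1 h to 0.62 without CD3+CD28+TSP1 at 3 h, and that of CBS from 0.029 without CD3+CD28 at 1 h to 0.26 without CD3+CD28 at 6 h. CTH and ETHE1 in Jurkat ran from -0.23 to -0.040 and from 0.063 to 0.21, with the ends at CD3+CD28 of 3 h and of 1 h left out. In JinB8 MPST ran from 0.044 without CD3+CD28+TSP1 at 1 h to 0.32 without CD3+CD28 at 3 h. The reach of 2 SE each way ran from 0.18 to 0.64 on the log2 scale over the 50 tests, and some values beyond it were not called after adjustment, so changes of this size could be missed.

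Some values in the contrasts with untreated cells were larger, and none was called in the main tests. In JinB8, TSP1 against untreated was -0.76 for MPST (SE 0.30, unadjusted p = 0.0233, adjusted p = 0.489) and -0.35 for CBS (SE 0.14, unadjusted p = 0.0221, adjusted p = 0.483). In Jurkat SQOR had 0.43 with TSP1 (SE 0.18, adjusted p = 0.683) and 0.45 with CD3+CD28 (SE 0.18, adjusted p = 0.58), both against the untreated library. MPST for CD3+CD28 against untreated in JinB8 was also low, at -0.61 (SE 0.30, unadjusted p = 0.0599, adjusted p = 0.994). Each of these rests on 1 untreated library per line, and the untreated library had the lowest SQOR value of all Jurkat libraries, and the highest SQOR and MPST values of all JinB8 libraries. Without the filter on low counts, MPST in JinB8 was called (-0.78, adjusted p = 0.00108), beside 1.31% of all genes.

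Levels of different genes were compared after division by transcript length, as isoform counts per kb scaled to the same total in each library, for which lengths covered 99.15% of counts. In Jurkat ETHE1 was highest and CTH lowest of the 5 in 10 of 10 libraries on this per-length scale, with means of 16.2 ± 2.67 and 1.80 ± 0.731, and between them CBS at 7.32 ± 1.91, MPST at 8.93 ± 3.27 and SQOR at 6.92 ± 0.939 were within their spread. In JinB8 CTH was again lowest in 10 of 10 libraries, while CBS and ETHE1 were each highest in 5, in an order that changed with time. At 1 h ETHE1 was highest in 4 of 4 libraries, at 24.3 ± 1.71 against 17.4 ± 2.68 for CBS, and at 6 h CBS was highest in 3 of 3, at 28.9 ± 1.67 against 18.4 ± 2.20 for ETHE1. At 3 h CBS was highest in 2 of 3 libraries, at 25.4 ± 4.67 against 22.6 ± 1.15, within their spread. MPST averaged 15.3 ± 5.57 and SQOR 12.02 ± 2.77 over the 10 libraries.

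**Figure D5:**
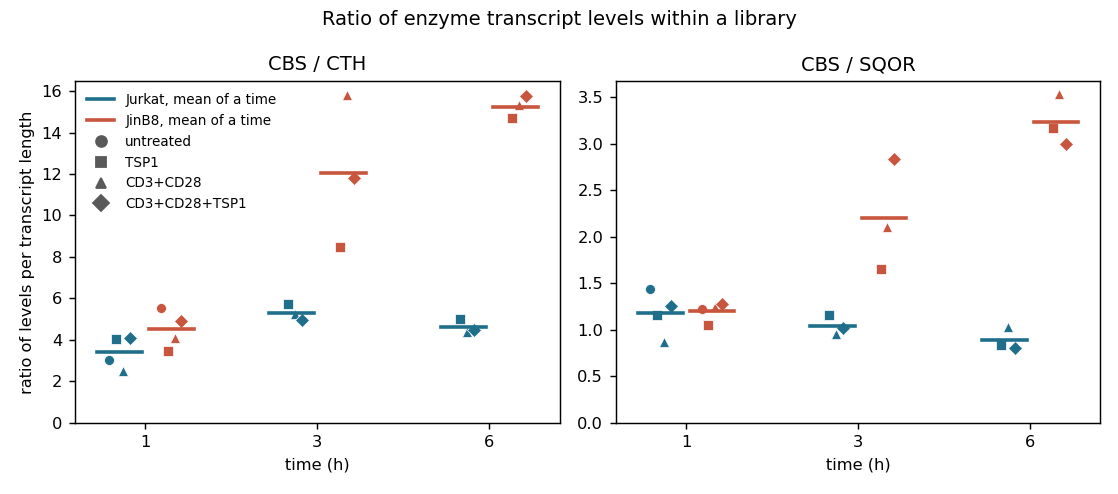
Ratio of the per-length level of CBS to that of CTH (left) and of SQOR (right) within each library by time, with symbols for the treatment and bars for the mean. The ratios to CTH reach 15.3 on average in JinB8 at 6 h and 4.63 in Jurkat, and the ratios to SQOR start at about the same level in both lines at 1 h and part afterwards.

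Within a library, the ratio of CBS to CTH per length in Jurkat was 3.42 ± 0.779, 5.31 ± 0.390 and 4.63 ± 0.328 at 1, 3 and 6 h. In JinB8 it was 4.51 ± 0.908, 12.1 ± 3.67 and 15.3 ± 0.534 (SD, n = 4, 3 and 3). The ratio of CBS, which makes sulfide, to SQOR, which oxidizes it, was 1.177 ± 0.238 in Jurkat and 1.20 ± 0.101 in JinB8 at 1 h, and 0.891 ± 0.124 against 3.23 ± 0.277 at 6 h. These are ratios of transcripts and no measure of sulfide, and they are given without a test since they follow from the levels above.

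Most counts of each gene came from 1 protein-coding isoform. Of 17 CBS isoforms, CBS-204 (start site 43075835) held 68.1% of CBS counts and was higher in JinB8, at 30.8 against 10.9 CPM (log2 fold change 1.503, adjusted p = 2e-05). CTH-202 held 80.9% and CTH-203 17.3% of CTH counts, SQOR-201 held 96.6% and ETHE1-201 91.6%. MPST-206, which codes for protein, held 65.5% and MPST-207, which retains an intron, 29.2% of MPST counts. Per length, MPST-206 held 85.9% and the longer MPST-207 8.81%. MPST-207 was higher in JinB8 (0.81, adjusted p = 4.38e-06) while MPST-206 did not pass (0.49, adjusted p = 0.133). Of 10 isoforms with at least 5% of their gene's counts, 5 were called, beside 15.1% of 55450 isoforms tested. The share of a gene's counts taken by an isoform was compared for 8 isoforms, and none differed between the lines by a permutation test with 100000 resamples (adjusted p from 0.3 to 0.992). For MPST-207 the share was 27.9 ± 6.25% in Jurkat and 32.01 ± 7.44% in JinB8 (permutation p = 0.202, adjusted p = 0.324).

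Other genes of sulfur metabolism were read as lists. Of 9 tested genes of the methionine cycle, which feeds homocysteine to CBS, 2 were called between the lines, beside 40.4% of all genes. MTRR was higher in JinB8 (0.32, adjusted p = 0.00763) and MAT1A lower (-0.56, adjusted p = 0.0145), and the median was -0.06, against -0.01 over all genes. Of 7 tested enzymes that release sulfide or carry persulfide sulfur, 2 were called, beside 40.4% of all genes. GOT1 was higher (0.35, adjusted p = 0.000857) and TXNRD1, a thioredoxin reductase, lower (-0.73, adjusted p = 2.29e-05), with a median of -0.21. Of 3 enzymes of thiosulfate and sulfite, 1 was called higher and 1 lower, beside 40.4% of all genes called. TST, the mitochondrial rhodanese, was higher (1.93, SE 0.19, adjusted p = 2.26e-08) and TSTD1 was lower (-0.72, adjusted p = 6.25e-07). SUOX, which oxidizes sulfite, was at 0.12 (adjusted p = 0.713), and the median of the 3 was 0.12. TST was at 0.602 to 1.83 CPM in Jurkat and at 2.65 to 6.11 CPM in JinB8, without overlap, and its 5′ end is the one that overlaps MPST.

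Of 10 tested genes of cysteine supply and use, 4 were higher in JinB8 and 0 lower, beside 40.4% of all genes called and 19.8% higher, with a median of 0.16. These were SLC7A11, the cystine transporter (1.23, adjusted p = 0.00605), SLC1A5 (0.71, adjusted p = 0.00345), SLC1A4 (0.40, adjusted p = 0.00605) and GSS, a glutathione synthesis enzyme (0.27, adjusted p = 0.0245). In the change from 1 h to 6 h, 4 of the 10 differed between the lines, all in the direction of CBS, beside 16.6% of all genes and 6.46% in that direction, with a median of 0.28. In the same comparison 2 genes of the methionine cycle, MAT2A (0.92) and MTRR (0.40), were in the direction of CBS and 1, MAT2B (-0.44), in the other, and 0 of 7 sulfide release and persulfide genes and 0 of 3 thiosulfate and sulfite enzymes were called. SLC3A2, MAT2A and MAT2B are named here after their values were seen. Of the 10 genes of cysteine supply and use, 3 were higher and 5 lower at 6 h than at 1 h in Jurkat, beside 8238 of 16327 genes called. In JinB8 5 were higher and 0 lower, beside 8646 of 16327 genes called. SLC7A11 fell by 1.60 in Jurkat and rose by 1.70 in JinB8, SLC1A5 fell by 1.11 and rose by 0.91, and SLC3A2, the partner chain of SLC7A11, fell by 0.58 and rose by 1.24, all with adjusted p of 0.000112 or less. SLC1A4 fell by 0.60 in Jurkat (adjusted p = 9.99e-06) and was at -0.03 in JinB8. Of 3 transcription factors known to act on these genes, 1 was called between the lines, beside 40.4% of all genes. SP1 was lower in JinB8 (-0.33, adjusted p = 0.0123), and ATF4 and NFE2L2 were at 0.07 and -0.28 (adjusted p = 0.723 and 0.0939). From 1 h to 6 h ATF4 fell by 0.99 in Jurkat and was at -0.03 in JinB8, a difference of 0.95 (adjusted p = 0.00146), and NFE2L2 fell in both, with a difference of 0.51 (adjusted p = 0.00344). These were 2 of 3 factors called in this difference, beside 16.6% of all genes.

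Over the 20 libraries, after each line's mean was subtracted, the genes nearest to each of the 5 by Pearson's r of log2 CPM among 13151 genes were found as a description. CBS was nearest to SDK2 (r = 0.94) and to HSPA1B and HSPA1A (0.93 and 0.91), which are near-identical copies of an inducible heat shock gene. CTH was nearest to RBSN (0.97), EPS15 and AC123912.4 (0.96 each), MPST to NOP53 (0.95), PACS2 and HELZ2 (0.91 each), SQOR to IP6K2 (0.92), TBCC and SAE1 (0.91 each), and ETHE1 to RPL13A, RPL3 (0.91 each) and SUMF2 (0.90). The libraries share times and treatments, and these r values carry no test. Among the 5 genes themselves, CBS and CTH had r = 0.79 over the 10 Jurkat libraries and -0.65 over the 10 JinB8 libraries, and SQOR and ETHE1 had 0.74 and 0.88.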

How the data were processed

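Libraries were made with the TruSeq mRNA kit. The study's methods and processing notes give adapter trimming by cutadapt 1.18, alignment to GRCh38 by STAR 2.4.2a and quantification by RSEM 1.3.3 with a GENCODE annotation. The deposited tables hold RSEM expected counts per gene and per isoform, not normalized. Both tables have 2 columns of no sample, which were not used. The authors' quantile normalization and ComBat correction were not repeated in the main tests, since the batch is not named in the sources used here.

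Expected counts were rounded for edgeR 4.0.16 (R 4.3.3, limma 3.58.1, DESeq2 1.42.0), filtered by line (minimum count 10, total 15), scaled by TMM and tested by quasi-likelihood with Benjamini-Hochberg adjustment over all genes at 0.05. The line test used 20 libraries. Time and treatment contrasts came from 1 model with a coefficient per line and treatment and terms for 3 h and 6 h in each line, which takes the time effect as equal over the treatments of a line. SE is the log2 fold change divided by the root of F, and intervals are 2 SE each way. Log2 CPM has a pseudocount of 0.5. The CPM floors cover counting error only.

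The genes named are the 5 enzymes, CBSL, CD47, at most 4 genes per pathway list called between the lines, and the 3 genes most like each enzyme by Pearson's r. EGR1, CD69, SUOX, ATF4, NFE2L2, SLC3A2, MAT2A, MAT2B, CD28 and ZAP70, members of the lists, are named outside this rule, after their values were seen. The 5 genes and the lists were chosen with earlier results of these data known. Libraries of the lines were paired by treatment and time, as given in their titles. Deviations from the line mean correlated at 0.13 to 0.60 in the 10 pairs, and those from the mean of line and time at -0.33 to 0.18. The scripts were tested on simulated data. Other tools, scalings, filters, a block or time term, subsets and single libraries left out were tried as alternatives.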

Additional observations from a re-analysis of the deposited data

Results flagged for a closer look

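The change of CBS from 1 h to 6 h differed between the lines by 1.67 on the log2 scale (SE 0.13, adjusted p = 4.08e-06 by edgeR), with a fall in the 3 Jurkat libraries of 6 h and a rise in the 3 JinB8 libraries of 6 h. The difference was between 1.59 and 1.82 when each of the 20 libraries was left out in turn. No library stood apart from the others of its line, or of its line at 1 h, for any of the 5 genes by Dixon's test over 20 groups, of which chance would mark about 1.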

How the results depend on the processing

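Between the lines, CBS, MPST and SQOR passed whichever library was left out (CBS 1.38 to 1.52), and CTH did not pass under any, while ETHE1 ran from 0.18 to 0.26 and passed in 3. A block for the 10 matched pairs gave CTH 0.38 and ETHE1 0.22, and a time term gave CTH 0.38 and ETHE1 0.22, so that 5 genes were called under each, beside 54.9% and 58.8% of all genes. The 6 h libraries alone gave 5 called genes, with CTH at 0.58 and ETHE1 at 0.49. The 1 h libraries alone gave CTH 0.31, which passed, and MPST 0.37 and ETHE1 0.14, which did not. The 3 h libraries alone gave CTH 0.30 and ETHE1 0.073, which did not pass (adjusted p = 0.335 and 0.707). MPST did not pass over the 4 unactivated pairs (0.48), and SQOR did not over the 6 activated pairs (0.42) or at 3 h (0.45). The block left the CBS difference in time at 1.66 and changed no other call in the line comparison or the line differences, and it was not run for contrasts within a line.

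A time effect forced to be equal in both lines gave CBS 0.24 at 6 h and -0.033 at 3 h, MPST -0.059 at 3 h, and 3 genes called at 6 h in Jurkat, beside 56% of all genes, and it turned CBS for TSP1 against untreated JinB8 to 0.085. For CBS this follows from averaging lines that moved in opposite directions. MPST at 6 h in Jurkat was -0.37 there and lost its call (adjusted p = 0.0633). With single libraries left out, 1 to 4 genes were called at 3 h and 3 to 5 at 6 h in Jurkat, and 1 to 2 differed between the lines in the change to 6 h, beside 25.6% to 43.3%, 42.2% to 57.3% and 8.87% to 26.1% of all genes. MPST at 6 h in JinB8 ran from -0.24 to 0.051, and the difference between the lines in the change of SQOR from 1 h to 6 h from -0.17 to 0.020. For the line difference in the change from 1 h to 6 h, 2 genes were called under upper-quartile factors (ETHE1 0.50, beside 16.6% of all genes), with at least 1 CPM in every library (ETHE1 0.47, beside 20.9%) and without a filter (MPST 0.57, beside 6.72%). Without a filter 1 gene, MPST, was called for TSP1 against untreated JinB8.

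For CD3+CD28+TSP1 against CD3+CD28, values near 0 changed sign. In JinB8, CTH was -0.097 with limma voom and quantile normalization together, and SQOR was 0.023 with upper-quartile factors, 0.011 with the CPM filter and 0.0089 from JinB8 libraries alone. With single libraries left out, SQOR in Jurkat ran from -0.087 to 0.023, and in JinB8 CBS ran from -0.045 to 0.067, CTH from -0.12 to 0.15, SQOR from -0.11 to 0.17 and ETHE1 from -0.067 to 0.14. With isoforms of at least 10% of a gene's counts, 3 were called, and with Spearman's rho 6 of the 15 nearest genes were shared. Except where an alternative's own construction shows it, the cause was not tested. CTH had the fewest counts, 60 to 207 per library.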
